A study of Mus musculus with 45 samples.

Results

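Car13, Car1, Car3 and Car2 are neighbouring mouse genes for carbonic anhydrases, and accessibility around them was compared between red cell precursors with and without Stag2. The 4 genes were chosen by name and position on chromosome 3 from the 24333 genes of the deposited gene score table. On mm10, Car13 spans 14641727 to 14663002 on the plus strand, Car1 14766214 to 14808365 on the minus strand, Car3 14863538 to 14872381 on the plus strand and Car2 14886426 to 14900770 on the plus strand. The gaps between neighbours are 103.2 kb, 55.2 kb and 14.0 kb, and no other gene of the table lies between them.

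Carbonic anhydrases interconvert carbon dioxide and bicarbonate, the reaction that lets red cells carry carbon dioxide from the tissues to the lungs. The products of these 4 genes are cytosolic. Car1 and Car2 encode the isozymes best known from red cells, Car2 being the faster enzyme; Car3 encodes a slow isozyme best known from skeletal muscle and fat, and Car13 a broadly expressed one.

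The series holds 45 samples, of which the 6 single-nucleus ATAC libraries of sorted Ter119+ erythroblasts (red cell precursors carrying the surface protein Ter119) were analysed, 3 Stag2 WT and 3 Stag2 KO. The Stag2 protein belongs to cohesin, a ring-shaped complex that shapes chromatin loops. Mice of both genotypes were sampled 6 to 8 weeks after pIpC, a synthetic RNA given to induce the deletion. Strain, sex, age and the driver of the deletion are not given in the sources used here, and neither is whether each library came from a separate mouse, so p-values measure the spread between these libraries.

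The 34073 nuclei fell into 5819 to 6990 per WT library and 4617 to 4925 per KO library, the median nucleus of a library holding 7122.5 to 8874 fragments, and 725 barcodes occurred in 2 or more libraries. The authors' classes were Early, Int (read here as intermediate) and Late, and Int and Late held enough nuclei for a test. The gene score sums ATAC fragments around a gene, so it measures accessibility and not expression, and neighbouring genes can share fragments. It is given as the mean over the nuclei of a library, scaled so that all genes of a library sum to 1000000. Stag2 itself scored 64.2, 65.7 and 65.9 in WT and 61.0, 65.1 and 62.4 in KO, a score that cannot tell if an exon is missing (log2 fold change -0.05, limma adjusted p = 0.348). Summed scores of 13 erythroid markers were 2361 to 2506 in WT and 2083 to 2188 in KO, and 12 of the 13 were called lower, where 14.2% of all tested genes were. Those of 8 myeloid markers were 70.3 to 79.6 and 95.8 to 98.9, and 4 of the 7 tested were called higher, where 29.1% of all tested genes were; none of these markers was at 0 in any library. Against the same 29.1%, calls higher in KO were 2 of 4 tested lymphoid markers, 3 of 5 stem and progenitor markers, 1 of 4 macrophage markers and 1 of 4 megakaryocyte markers, of which another 1 was called lower. Fragment ends in peaks made up a smaller median share in KO, 57.4% to 59.9% against 62.2% to 64.7%. On nuclei matched on the share in peaks 11 of 13 erythroid markers were called lower and 2 of 8 myeloid and 1 of 4 megakaryocyte markers higher, another megakaryocyte marker was lower, and no lymphoid, stem and progenitor or macrophage marker was called; matched on depth the counts were those of all nuclei. Under quantile normalization 8 of 13 erythroid markers and 1 macrophage marker were called lower and 1 megakaryocyte marker higher. No myeloid, lymphoid or stem and progenitor marker was called there. Under cyclic loess 7 erythroid markers were called lower, 2 myeloid and 1 megakaryocyte marker higher, and no lymphoid, stem and progenitor or macrophage marker. With median centring 12 erythroid markers were called lower and 4 myeloid markers higher. Of all 17682 tested genes, 2549 were called higher and 2890 lower under quantile normalization. These numbers were 2829 and 2411 under cyclic loess and 3018 and 5508 with median centring. Matched on the share in peaks they were 2560 and 2145 of 18691, and matched on depth 4742 and 2958 of 17636. The part of the marker genes in the results was not tested.

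Across all nuclei, accessibility around Car2 and Car3 was lower in KO, and that around Car13 was higher. Car1 lay above WT in every KO library without passing the test. Of the 4 genes, 2 were called lower and 1 higher, where 14.2% of all 17682 tested genes were called lower and 29.1% higher (43.3% in either direction; limma on log2 of the score plus 1, Benjamini-Hochberg adjusted p under 0.05). A call in either direction is therefore common in this comparison. Car3 and Car2 lie 14.0 kb apart and can share fragments, so their 2 calls may not be separate observations.

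Car2 scored 232.5, 215.2 and 218.8 in the WT libraries 1, 2 and 3 and 183.7, 185.5 and 195.6 in the KO libraries 1, 2 and 3. Every KO library lay below every WT library, as for 19.3% of the tested genes. This was a log2 fold change of -0.24 with a 95% interval of -0.33 to -0.14 (limma adjusted p = 0.000662, SE 0.046), and 4.9% of the tested genes had a lower one. Car3, the neighbour of Car2 on its left, scored 106.9, 97.0 and 99.0 in WT and 84.2, 87.1 and 89.6 in KO, and its groups were apart too. Its log2 fold change was -0.21 (-0.31 to -0.11, limma adjusted p = 0.00176), close to that of Car2.

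Car13, at the other end of the cluster, scored 9.02, 12.5 and 12.5 in WT and 15.2, 14.7 and 13.8 in KO. All 3 KO libraries lay above all 3 WT libraries, as for 36.1% of the tested genes, and WT replicate 1 was the lowest. The log2 fold change was 0.35 (0.09 to 0.61, limma adjusted p = 0.0322), and 82.3% of the tested genes had a lower one. Car13 missed the threshold without WT replicate 1 (0.20, limma adjusted p = 0.224), KO replicate 1 (0.32, 0.0810) or KO replicate 2 (0.34, 0.0815). It also missed it on nuclei matched on the share in peaks (0.21, limma adjusted p = 0.113) and under quantile normalization (0.06, 0.695), and it passed in 10 of 19 alternatives.

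Car1 scored 17.8, 16.6 and 14.0 in WT and 20.7, 18.1 and 17.9 in KO. The groups were apart, the lowest KO library lying just above the highest WT library, but the log2 fold change of 0.22 (-0.01 to 0.45) missed the threshold (limma adjusted p = 0.101). Without WT replicate 3 the value was 0.13 (limma adjusted p = 0.352), and its direction turned under quantile normalization, to -0.05.

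**Figure D1:**
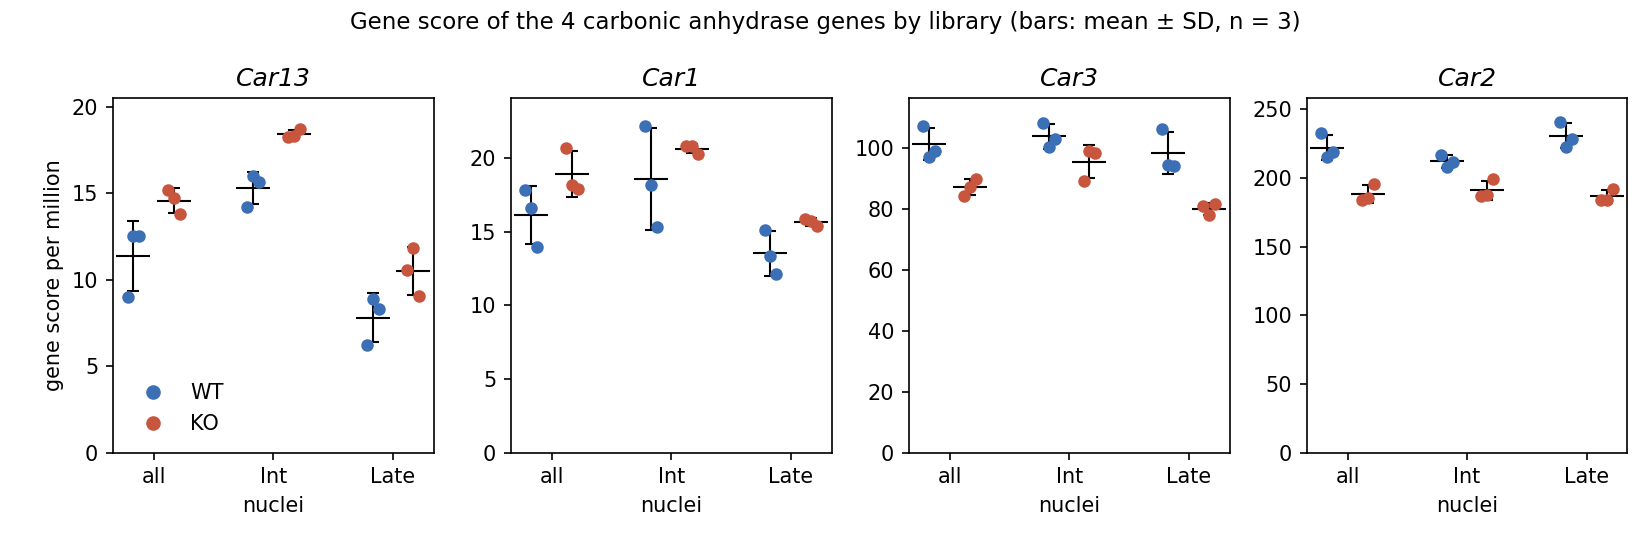
Gene score per 1000000 (vertical axis, from 0) of the 4 genes in all, Int and Late nuclei; each point is a library, WT in blue and KO in red, and bars show the mean ± SD of 3 libraries. In all nuclei the KO points of Car2 (183.7 to 195.6) and Car3 (84.2 to 89.6) lie below every WT point, and those of Car13 (13.8 to 15.2) lie above.

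The directions ran along the general relation between level and change in these libraries. Genes of low score tended to be higher in KO and genes of high score lower: the median log2 change over all nuclei was 0.265 and 0.236 in the first and second quartile of mean score and -0.02 and -0.07 in the third and the fourth. Car13 and Car1 belonged to the second quartile and Car3 and Car2 to the fourth. The changes of Car2 and Car3 lay well below the median of their quartile, that of Car13 lay above the median of its own, and that of Car1 close to it. The median over all tested genes was 0.10, and 67.1% of the calls were higher in KO; this share was 46.9% under quantile normalization, 54.0% under cyclic loess and 35.4% with median centring. With median centring Car2 and Car3 stood at -0.38 and -0.36. They were smaller under quantile normalization (-0.16 and -0.16) and cyclic loess (-0.16 and -0.15). On nuclei matched on the share in peaks they were -0.18 and -0.14.

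The authors' classes were fitted separately, so that the comparison did not rest on how many nuclei of each class a library held. Within a class most clusters held nuclei of essentially 1 genotype. Cluster and genotype can therefore not be told apart in the Int and Late fits or in the difference between them. In Late nuclei the calls were those of all nuclei: Car2 and Car3 fell and Car13 rose. In Int nuclei only Car2 passed the threshold, while Car3, Car13 and Car1 pointed the same way as in Late.

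In Late nuclei Car2 scored 240.7, 222.9 and 228.5 in WT and 184.2, 184.1 and 192.3 in KO. The gap between the lowest WT and the highest KO library was wider than the range within either group. Its log2 fold change was -0.30 (-0.39 to -0.21, limma adjusted p = 5.19e-05), a decrease of the mean score to 0.81 of WT. Car3 scored 106.2, 94.4 and 93.9 in WT and 80.7, 77.7 and 81.4 in KO. The KO libraries again lay below every WT library, as for 22.7% of the tested genes, and Car3 changed by -0.29 on the log2 scale (limma adjusted p = 0.000545).

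Car13 in Late nuclei scored 6.21, 8.88 and 8.31 in WT and 10.53, 11.8 and 9.05 in KO. The groups were apart by little, KO replicate 3 lying just above WT replicate 2, where 36.8% of the tested genes had every KO library above WT. In this class Car13 belonged to the first quartile of mean score, whose median change was 0.333. Its own change was 0.39 on the log2 scale (limma adjusted p = 0.0232). It missed the threshold without WT replicate 1 (0.25, limma adjusted p = 0.116), KO replicate 1 (0.38, 0.0574) or KO replicate 2 (0.30, 0.102), and on nuclei matched on the share in peaks it was 0.18 (0.555). Car1 scored 15.1, 13.4 and 12.1 in WT and 15.9, 15.7 and 15.4 in KO, apart but not past the threshold (0.20, limma adjusted p = 0.0816). Without WT replicate 1 Car1 passed it (0.28, 0.0322), without WT replicate 3 it was 0.13 (0.266), and on nuclei matched on the share in peaks it turned to -0.07. In this class 18.5% of 15886 tested genes were called lower, 32.9% higher and 51.4% in either direction.

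In Int nuclei Car2 scored 216.9, 208.0 and 211.6 in WT and 186.6, 187.6 and 199.2 in KO. Every KO library lay below every WT library, as for 14.4% of the tested genes, and the log2 fold change was -0.15 (-0.25 to -0.05, limma adjusted p = 0.0320). Of the 4 genes it was the only one called, where 7.10% of 19465 tested genes were called lower and 19.8% in either direction. The call was lost without WT replicate 1 (-0.13, limma adjusted p = 0.104), KO replicate 1 (-0.13, 0.153) or KO replicate 2 (-0.14, 0.148), and without the highest doublet scores (-0.14, 0.0608). Under quantile normalization the value was -0.08 (limma adjusted p = 0.177) and under cyclic loess -0.08 (0.227), with median centring it was -0.33 (0.0381), and 12 of 20 alternatives passed.

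Car3 in Int nuclei scored 108.1, 100.03 and 102.8 in WT and 89.0, 98.9 and 98.2 in KO, with the groups apart by about 1 score unit between WT replicate 2 and KO replicate 2 (-0.12, limma adjusted p = 0.105). Without KO replicate 1 the change of Car3 was -0.07 (0.491). Car13 scored 14.2, 16.01 and 15.6 in WT and 18.2, 18.3 and 18.7 in KO, apart as for 22.8% of the tested genes (0.26, limma adjusted p = 0.142). Car1 scored 22.2, 18.1 and 15.3 in WT and 20.8, 20.8 and 20.3 in KO. The WT libraries of Car1 spread around the KO libraries here, and WT replicate 1 exceeded them all (0.16, limma adjusted p = 0.381). The value was 0.04 without WT replicate 3 and 0.29 without WT replicate 1.

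Whether the KO effect differed between the classes was tested within libraries, on the difference of log2 scores between Late and Int. For Car2 this difference was 0.15, 0.10 and 0.11 in WT and -0.02, -0.03 and -0.05 in KO. Accessibility around Car2 was thus higher in Late than in Int nuclei in all 3 WT libraries and in none of the KO libraries. The difference of the KO effect was -0.15 (95% interval -0.27 to -0.04, limma adjusted p = 0.175), which missed the threshold. The interval is not adjusted over genes.

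Car3 gave -0.03, -0.08 and -0.13 in WT and -0.14, -0.34 and -0.27 in KO. All 6 libraries were lower in Late, the KO libraries more so, at a difference of -0.17 (-0.35 to 0.01, limma adjusted p = 0.294). Car13 was lower in Late than in Int nuclei in every library, by a mean log2 difference of -0.90 in WT and -0.77 in KO. Car1 was lower as well, by -0.42 and -0.38. The differences of the KO effect were 0.13 for Car13 and 0.04 for Car1, with limma adjusted p of 0.678 and 0.849. Leaving out single libraries moved them between 0.04 and 0.24 and between -0.01 and 0.09. Of all 15873 genes tested, 0.221% passed this test. None of the 4 genes did.

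**Figure D2:**
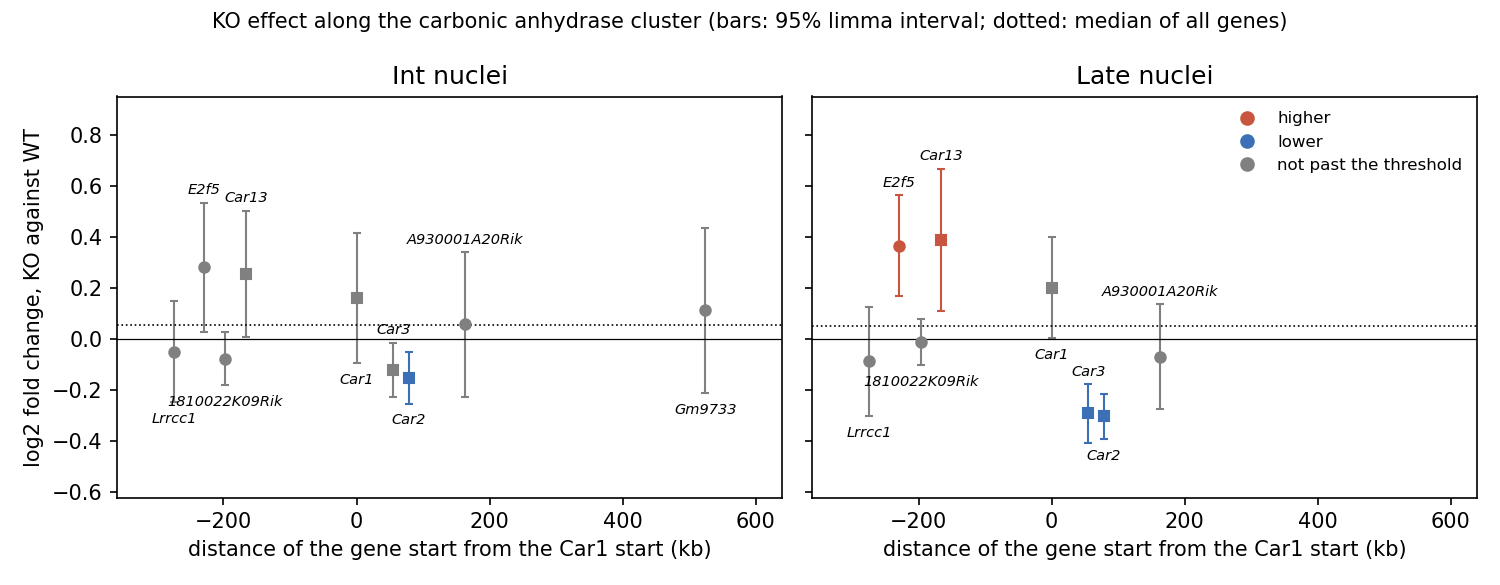
Log2 fold change of KO against WT (vertical axis, with 95% limma intervals) against the distance of each gene start from the Car1 start in kb, for the 4 genes (squares) and the tested neighbours within 1 Mb (circles), in Int and Late nuclei. In Late nuclei Car13 (0.39) and E2f5 (0.37) on the left are higher, Car3 (-0.29) and Car2 (-0.30) on the right are lower, and the dotted line is the median of all tested genes. Lrrcc1 (-0.09) and 1810022K09Rik (-0.01) on the left and A930001A20Rik (-0.07) on the right were not called in Late nuclei.

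Of the 10 neighbours with a start within 1 Mb, 4 passed the filter on low scores in all nuclei, 1 was called higher and none lower, where 29.1% and 14.2% of all tested genes were; their median log2 change was -0.01, against 0.10 over all genes. The gene called was E2f5, an E2F family transcription factor gene whose start lies at -229.7 kb from the Car1 start. It scored 13.2, 13.4 and 13.3 in WT and 17.9, 16.7 and 15.9 in KO, with the groups apart (0.32, limma adjusted p = 0.0172), and it was called in Late nuclei too (0.37, limma adjusted p = 0.00465) but not in Int nuclei (0.28, limma adjusted p = 0.113), where the groups were also apart. In all nuclei E2f5 was 0.04 under quantile normalization, 0.09 under cyclic loess and 0.17 with median centring, and lost its call in each and without WT replicate 1, KO replicate 1 or KO replicate 2 (0.31, 0.28 and 0.32). In Late nuclei it also missed the threshold matched on depth (0.27, limma adjusted p = 0.0662) and on the share in peaks (0.45, 0.0651), and in Int nuclei it passed matched on the share in peaks (0.36, 0.0421). The Late value of E2f5 ran from 0.07 to 0.45 over 18 alternatives, and 4 of them missed the threshold. On the other side, beyond Car2, no tested neighbour was called in any class. The gene 1810022K09Rik lies between E2f5 and Car13 and was not called in any class; in Late nuclei its change was -0.01, a sign that turned under 4 alternatives, and it was named after its values were seen. The other 6 neighbours scored below 6 in every library over all nuclei and were not tested there. In 5 of them, Gm6300, Slc7a12, Gm9733, Sirpb1a and Sirpb1b, every KO library lay above every WT library, as it did for 40.3% of the 6350 untested genes below the filter and 36.1% of the tested genes. Sirpb1a and Sirpb1b overlap along most of their length, so their scores are not separate observations.

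The unequal change within the cluster was measured as log2 ratios between genes of the same library, each formed from the score plus 1. Without the added 1 each difference below kept its direction. The log2 ratio of Car2 to Car3 was 1.11, 1.14 and 1.14 in WT and 1.12, 1.08 and 1.12 in KO over all nuclei and the groups overlapped (difference -0.02, exact permutation test, two-sided, p = 0.3). The log2 ratio of Car2 to Car13 was 4.54, 4.0 and 4.02 in WT and 3.51, 3.57 and 3.73 in KO. These groups did not overlap, at a difference of -0.58 (two-sided exact permutation p = 0.1, which 3 against 3 cannot go below, and 0.15 adjusted over the 6 pairs).

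The ratio of Car3 to Car13 moved likewise, by -0.56, and those of Car1 to Car2 and to Car3 rose by 0.46 and 0.43, each with the groups apart and the same exact p of 0.1. The ratio of Car1 to Car13 was 0.91, 0.38 and 0.15 in WT and 0.42, 0.29 and 0.35 in KO, with overlap (-0.13, exact permutation test, p = 0.8), and without WT replicate 1 that difference turned to 0.09. The groups thus overlapped for Car2 to Car3 and for Car1 to Car13 and were apart for the other 4 pairs. Each of these 4 pairs joins a gene of the second quartile of mean score with a gene of the fourth. The median changes of these quartiles were 0.236 and -0.07, and how often other such pairs were apart was not computed. In Late nuclei the same 4 pairs were apart, with differences of -0.69 for Car2 to Car13, -0.68 for Car3 to Car13, 0.50 for Car1 to Car2 and 0.49 for Car1 to Car3. In Int nuclei they were smaller, at -0.41, -0.37, 0.31 and 0.28, and the groups of Car1 to Car2 overlapped there; without WT replicate 3 those of Car1 to Car2 and Car1 to Car3 were 0.19 and 0.16. No pair could pass a threshold of 0.05 with these library numbers.

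Per nucleus, Car2 and Car3 varied together more than any other pair. The Spearman correlation of their scores within a library was 0.541 to 0.582 in Int and 0.478 to 0.541 in Late nuclei over the 6 libraries. For the other 5 pairs it ran from -0.001 to 0.162. Car1 and Car13 were at 0 in most Int and Late nuclei of every library, and Car2 and Car3 were above 0 more often. Many scores of 0 can limit such a correlation, so the pairs are not on an equal footing. The gap of 14.0 kb between Car3 and Car2 is the shortest of the cluster, and scores of such close genes can share fragments. All scores of a nucleus also share its depth, so these values are a description.

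The share of nuclei with a score above 0 was set beside the mean score among those nuclei, as the mean over all nuclei combines them. This share was computed for the 4 genes only, so how often the groups of other genes were apart in it is not known. In Late nuclei Car2 was above 0 in 78.4%, 75.3% and 71.8% of WT and 66.0%, 63.8% and 70.9% of KO nuclei. The KO shares all lay below the WT shares, by 8.28 percentage points on average (exact permutation test, two-sided, p = 0.1, adjusted over the 4 genes 0.133). Among nuclei above 0 the mean Car2 score was lower as well, 279.6 ± 8.85 in KO against 307.0 ± 11.1 in WT (SD, n = 3).

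Car3 in Late nuclei was above 0 in 60.3%, 54.7% and 51.2% of WT and 47.2%, 47.0% and 51.0% of KO nuclei, and Car13 in 6.74%, 8.11% and 6.70% of WT and 8.73%, 9.18% and 8.21% of KO nuclei. Both pairs of groups were apart, Car3 by -6.98 and Car13 by 1.53 percentage points, though the closest libraries differed by little. For Car1 the groups overlapped, at 14.4% ± 2.78 and 15.5% ± 0.565. The groups overlapped in depth here, at a mean of the library medians of 6345 fragments per Late nucleus in WT and 6202 in KO, and without WT replicate 1 the Car3 difference was -4.55. Matching nuclei on depth, which already overlapped, left the Car2 difference at -8.12 and the Car3 difference at -7.12. The groups of Late nuclei were apart in the share in peaks, with library medians of 64.1% to 66.4% in WT and 60.3% to 61.8% in KO. The percentages above 0 were not computed on nuclei matched on the share in peaks, so its part in these differences was not tested.

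In Int nuclei the KO libraries were deeper, with a median of 14480 ± 545 fragments against 11890 ± 1535. Car1 was above 0 in 34.2% ± 1.02 of KO and 27.8% ± 4.83 of WT nuclei, Car13 in 26.7% ± 0.740 and 19.9% ± 1.65, Car3 in 75.6% ± 1.72 and 71.8% ± 2.73 and Car2 in 85.6% ± 1.498 and 83.0% ± 2.40. The groups were apart for Car1, Car13 and Car3 and overlapped for Car2 (exact permutation test, p = 0.3), with no share over all genes to set beside this. Without WT replicate 3, whose median depth was the lowest, the differences of Car1, Car3 and Car2 shrank from 6.34, 3.84 and 2.63 to 3.56, 2.28 and 1.24 percentage points. With nuclei matched on depth the differences of Car1 and Car13 shrank to 2.62 and 3.99 percentage points with the groups still apart. Those of Car3 and Car2 turned to -1.71 and -1.13, and the groups overlapped. Among Int nuclei above 0, not matched on depth, the mean score was lower in KO for all 4 genes. It was 223.3 against 255.8 in WT for Car2 and 126.2 against 144.5 for Car3. For Car13 it was 69.15 against 77.11 and for Car1 60.5 against 66.8. In Late nuclei it was 165.3 against 177.3 for Car3, 119.9 against 108.6 for Car13 and 100.9 against 95.4 for Car1.

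**Figure D3:**
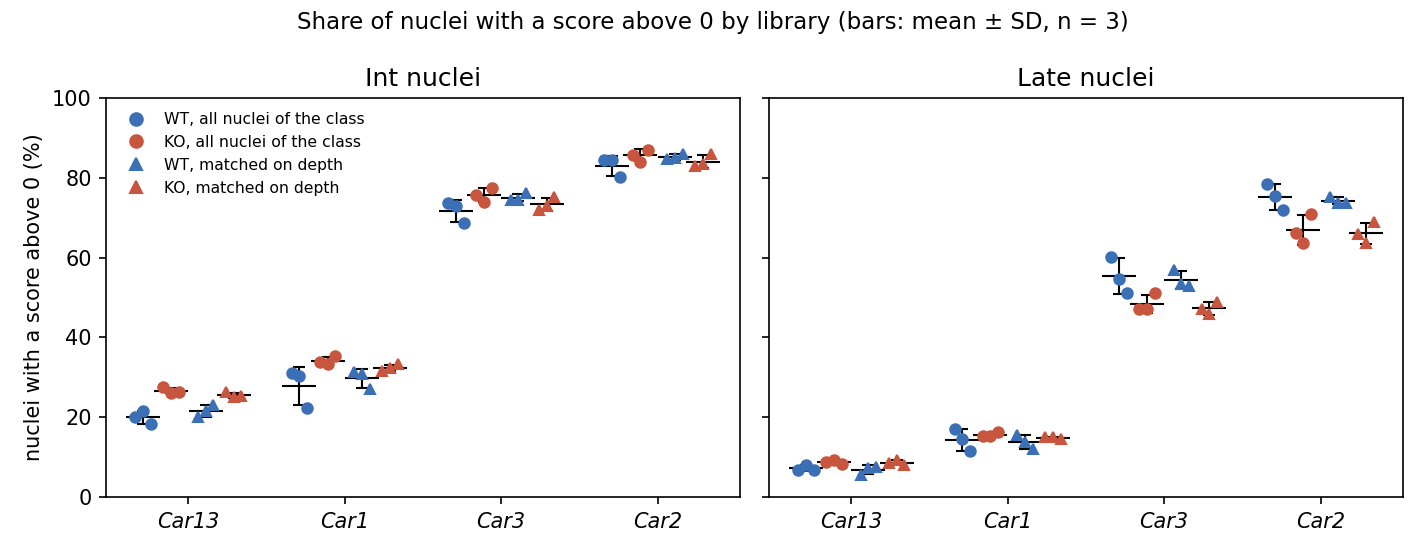
Percent of nuclei with a score above 0 (vertical axis, 0 to 100) in Int and Late nuclei, by library, with all nuclei of the class as circles and nuclei matched on depth as triangles; bars show the mean ± SD of 3 libraries, WT in blue and KO in red. In Late nuclei the KO libraries of Car2 (63.8% to 70.9%) and Car3 (47.0% to 51.0%) lie below the WT libraries with and without matching, and in Int nuclei they do not.

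The levels were also compared within strata of nuclei of like quality, as a description with no test. When Int and Late nuclei were each split into 3 equal strata of fragments per nucleus, Car2 and Car3 were lower in KO in 3 of 3 strata of both classes. In Late nuclei the groups were apart in every stratum, with log2 differences of -0.39 to -0.25 for Car2 and -0.33 to -0.27 for Car3. Strata of the share of fragment ends in peaks gave -0.34 to -0.25 and -0.41 to -0.24 in Late nuclei, again apart in 3 of 3. In Int nuclei the Car2 groups were apart in 3 of 3 strata of depth and 2 of 3 of the share in peaks. Those of Car3 were apart in 1 of 3 and 2 of 3. Car13 was higher in KO in every stratum of both splits, from 0.17 to 0.48. Its groups were apart in 2 of 3 Int strata of each split and in 1 of 3 and 2 of 3 Late strata. Car1 was higher in every stratum of depth, from 0.10 to 0.39, but ran from -0.11 to 0.20 over the Late strata of the share in peaks. The Car1 groups were apart in 2 of 3 Late strata of depth and in no other stratum.

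Levels along the authors' clusters are a description, because the clusters were made from the same accessibility data. Most clusters held nuclei of essentially 1 genotype: KO nuclei made up 99.4% of C8, 99.9% of C10 and 97.4% of C2, and 0.971% of C9, 0.0554% of C11, 1.32% of C6 and 0.740% of C3. Cluster and genotype can then not be told apart, and library values are given only where a library held at least 20 nuclei in the cluster. Car1 was highest in C7, the mostly Early cluster, at 38.3 and 41.7 in the first and second WT library and 53.3 and 47.6 in the first and second KO library. All 4 of these values exceeded every library value of every other cluster. Car1 then stood at 20.2 to 32.8 in the Int clusters C9 and C8, at 13.5 to 19.7 in C11, C10, C6 and C5, and at 12.3 to 15.4 in the WT libraries of the Late cluster C3 and 15.4 to 15.9 in the KO libraries of the Late cluster C2. The few nuclei of the other genotype gave 25.9 and 18.6 for KO in C3 and 1.34 to 12.3 for WT in C2. Outside this order, the 143 nuclei of the Int cluster C4 gave 22.2 to 33.5, the second highest mean, and the 138 nuclei of the Late cluster C1 gave 0 to 28.1, with KO replicates 1 and 3 at 28.1 and 24.8.

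Car2 was not highest in C7. In C7 it was 208.8 and 196.8 in WT and 155.9 and 153.6 in KO, the KO values being below those of every cluster but C4 and C1. It was 211.4 to 226.2 in the WT cluster C9 against 190.8 to 199.6 in the KO cluster C8, and 213.1 to 218.2 in the WT cluster C11 against 180.0 to 194.7 in the KO cluster C10. The WT libraries reached 222.7 to 241.9 in C3 and the KO libraries 183.1 to 192.4 in C2. The few KO nuclei of C3 went the other way, at 274.3 and 215.0, and the few WT nuclei of C2 gave 204.0 to 234.4. Within C7, C2 and the pairs C9 with C8 and C11 with C10, every KO value lay below every WT value; in C3, C4 and C1 they did not. In C5, where all 6 libraries were present, the groups overlapped by less than 1 score unit (205.6 to 222.7 in WT, 189.3 to 206.4 in KO), and the log2 fold change there was -0.10 (limma adjusted p = 0.686). None of the 4 genes was called in C5 alone, where 0.879% of 19454 tested genes were called, so that this count says nothing about the 4 genes.

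Car3 was 95.9 and 109.9 in the WT and 71.8 and 73.2 in the KO libraries of C7, 107.5 to 109.3 in C9 against 90.5 to 95.7 in C8, and 100.7 to 106.9 in C11 against 91.5 to 99.0 in C10. Every WT library lay above every KO library in these 3 comparisons. In the Late clusters Car3 was 93.9 to 107.1 in the WT and 85.0 and 89.9 in the few KO nuclei of C3. In C2 the KO libraries gave 78.2 to 81.6, and the few WT nuclei gave 61.9, 72.8 and 111.2, so 2 of 3 WT libraries lay below every KO library. The groups overlapped in C1 and C4, clusters of few nuclei. In C5 Car3 ranged from 94.9 to 142.8 in WT and from 84.7 to 109.9 in KO, with overlap. Car13 was 14.1 to 16.8 in C11 against 18.1 to 19.1 in C10, apart, and 15.0 to 18.4 in C9 against 17.8 to 19.98 in C8, overlapping. In C5 Car13 was 15.4 to 20.04 in WT and 16.5 to 19.3 in KO, and in C7 it was 19.1 and 21.2 in WT and 24.3 and 15.8 in KO, both with overlap. In the Late clusters it was 5.85 to 9.11 in the WT libraries of C3 and 9.41 to 12.1 in the KO libraries of C2. The few KO nuclei of C3 gave 0 and 3.0, below WT, the few WT nuclei of C2 gave 0 to 1.7, and the 138 nuclei of C1 gave 4.70 to 11.1 in WT and 0 to 2.50 in KO, with every KO library below every WT library. In C4, a cluster of 143 nuclei with a median of 2232 fragments, Car2 was 87.1 to 136.7 and Car13 3.32 to 62.7, values that rest on few fragments.

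**Figure D4:**
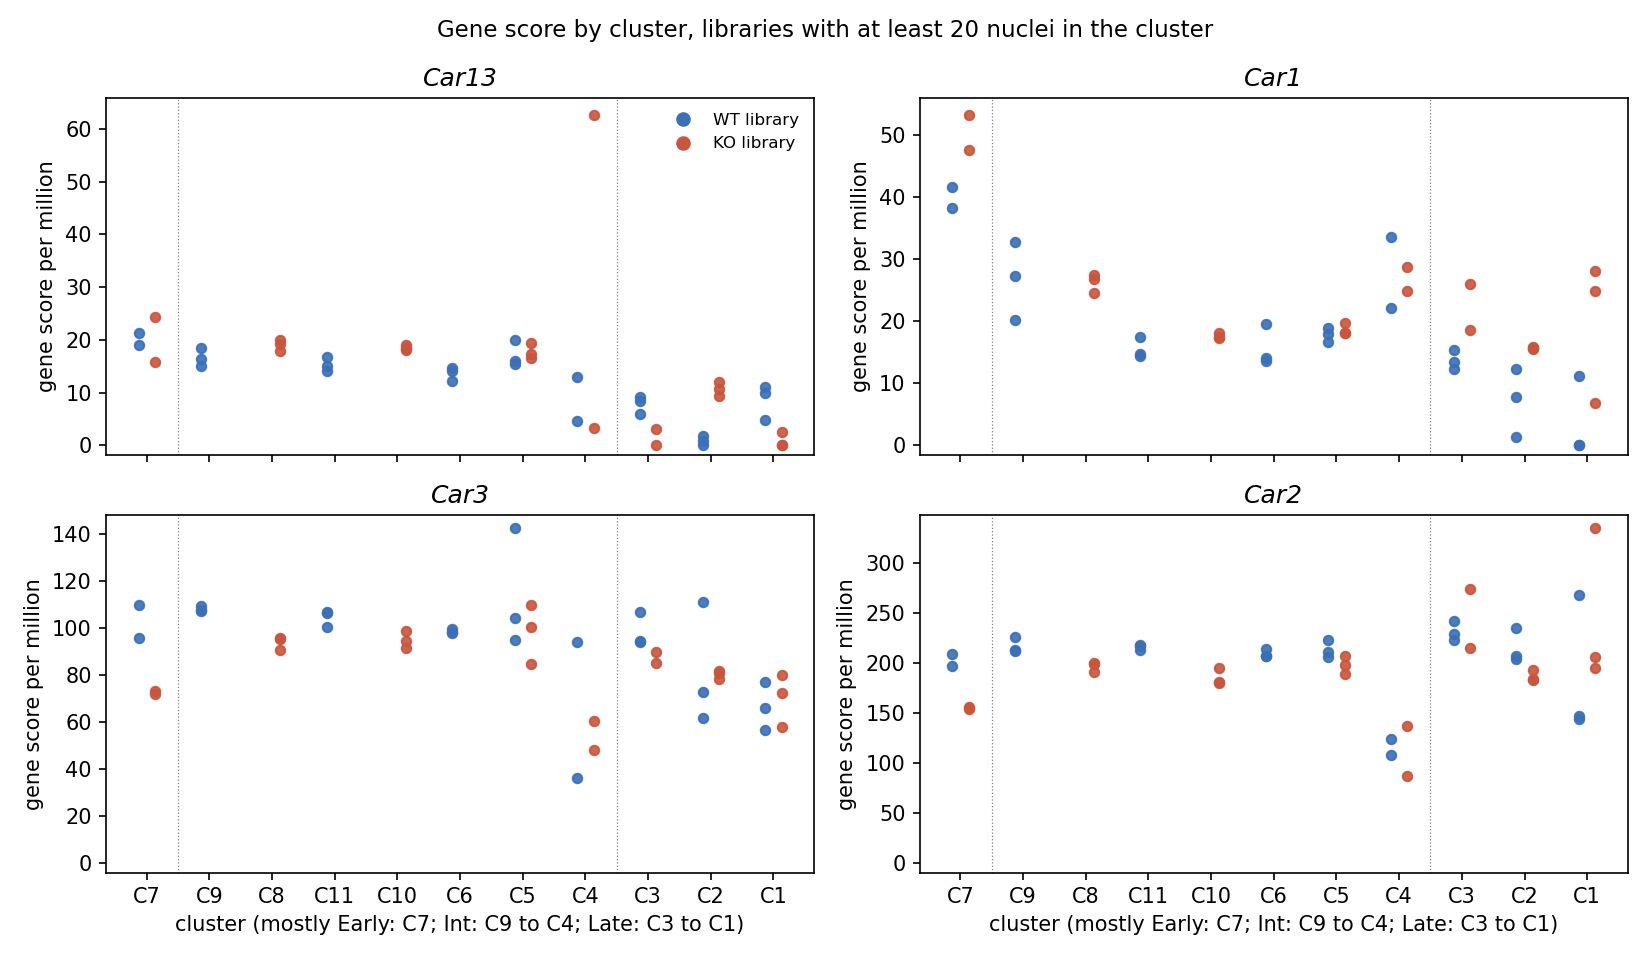
Gene score per 1000000 (vertical axis) of the 4 genes in each of the 11 clusters (horizontal axis, ordered Early, Int, Late); each point is a library with at least 20 nuclei in the cluster, WT in blue and KO in red. Car1 is highest in C7 (38.3 to 53.3), and the KO points of Car2 lie at 199.6 or below in C7, C8, C10 and C2 but reach 206.4 in C5, 274.3 in C3 and 335.2 in C1.

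In the Early class itself, WT replicates 1 and 2 and KO replicate 1 held at least 50 nuclei. Car1 was 41.5 and 41.6 in the WT libraries and 53.5 in the KO library, and Car13 19.8, 20.9 and 24.5. Car2 was 210.7, 195.6 and 158.2, and Car3 113.3, 98.4 and 72.6. With 1 KO library there was no test, and each value of this KO library lay on the same side of WT as in Late nuclei. In the Early cluster C7 alone, KO replicate 2 had Car13 below both WT libraries.

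The lists of related genes were read next. All 12 other carbonic anhydrase genes of the table passed the filter in all nuclei, 3 were called higher and none lower, where 29.1% and 14.2% of all tested genes were, and their median log2 change was 0.19 against 0.10 over all genes. Car12, which encodes a membrane-bound isozyme, scored 16.9, 16.1 and 14.7 in WT and 23.2, 25.0 and 22.3 in KO (0.54, limma adjusted p = 0.000261). Car11 and Car10, which encode related proteins without enzyme activity, changed by 0.33 and 0.24 (limma adjusted p = 0.0145 and 0.0437), Car11 with overlapping groups. Car12 passed under all 19 alternatives in all nuclei, Car11 under 14 of 20 and Car10 under 7 of 19. Car11 missed the threshold under quantile normalization (0.13), cyclic loess (0.17) and median centring (0.18), and without WT replicate 1 (0.26), KO replicate 1 (0.28) or KO replicate 3 (0.28). Car10 turned to -0.02 under quantile normalization and -0.14 on nuclei matched on the share in peaks, missed the threshold matched on depth (0.21) and, of the 6 fits that each left out 1 library, passed only in that without WT replicate 2. In Int nuclei Car12 alone of the 12 was called (0.44, limma adjusted p = 0.0160), where 12.7% of all tested genes were called higher, and it lost the call without KO replicate 1 (0.40) or KO replicate 2 (0.42). In Late nuclei the same 3 of 11 tested were called higher, Car12 at 0.62, Car10 at 0.55 and Car11 at 0.37, where 32.9% of all tested genes were. On Late nuclei matched on the share in peaks Car12 passed (0.43, limma adjusted p = 0.0201), and Car11 and Car10 did not (0.35 and 0.16). No carbonic anhydrase gene but Car2 and Car3 was called lower in all, Int or Late nuclei as reported. The counts of the 12 others depended on the scaling. In all nuclei 1 was called higher and 2 lower under quantile normalization and under cyclic loess, and 1 and 1 with median centring. Over all 17682 tested genes 2549 and 2890, 2829 and 2411, and 3018 and 5508 were called higher and lower under these settings. In Late nuclei the same settings gave 2 and 2, 3 and 1, and 3 and 1 of 11 tested. The numbers over all 15886 genes were 2794 and 3215, 3109 and 2814, and 4120 and 4481. In Int nuclei 1 was higher and 1 lower with median centring and on nuclei matched on the share in peaks. Over all genes these were 1353 and 4197 of 19465, and 2329 and 1471 of 19902.

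Of 17 genes for the transport of bicarbonate, acid, water and gas, 4 were called higher and 4 lower in all nuclei, where 29.1% and 14.2% of all tested genes were, with a median of -0.04. The counts were 2 and 4 under quantile normalization and under cyclic loess, and 3 and 7 with median centring. Of all 17682 tested genes, 2549 were called higher and 2890 lower under quantile normalization, and 2829 and 2411 under cyclic loess. With median centring the numbers over all genes were 3018 and 5508. On nuclei matched on the share in peaks the counts were 1 and 3, where 2560 of 18691 tested genes were called higher and 2145 lower. The transport genes that fell included Aqp1, a water channel of the red cell membrane. It scored 195.9, 192.1 and 213.2 in WT and 154.6, 143.9 and 148.1 in KO (-0.43, limma adjusted p = 2.56e-06). Rhag, a gas and ammonium channel of the Rhesus complex that is also 1 of the erythroid markers, changed by -0.34 (2.71e-05). The bicarbonate transporter genes Slc4a5, Slc4a3 and Slc4a4 and the anion exchanger gene Slc26a6 rose by 0.56, 0.39, 0.32 and 0.42. On nuclei matched on the share in peaks Aqp1, Rhag and Slc26a6 passed (-0.39, -0.29 and 0.40), Slc4a5 did not (0.23), and Slc4a3 and Slc4a4 turned to -0.13 and -0.08. Matched on depth all 6 passed. Slc4a3, Slc4a4 and Slc26a6 missed the threshold under quantile normalization and cyclic loess. Slc4a4 also missed it with median centring and without 4 of the 6 libraries, WT replicate 1 and each KO replicate. Slc4a3 also missed it without KO replicate 2. Slc4a1, the chloride and bicarbonate exchanger of the red cell membrane, named here after its values were seen, was -0.06 (limma adjusted p = 0.459) with overlapping groups.

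The genes whose scores ran most like each of the 4 were found over 12 points, the 6 libraries in Int and in Late nuclei, among genes over 1 Mb away. For Car2 these were Mir3058, Rab43 and Man1a (Pearson r of 0.983, 0.981 and 0.979), and for Car3 F930017D23Rik, Psmf1 and Optc (0.977, 0.975 and 0.975). For Car1 they were Fbxw10, Pdyn and BC051142 (0.979, 0.975 and 0.969), and for Car13 Zfp516, Tpmt and Pole4 (0.983, 0.983 and 0.982). Over the means of the 11 clusters r was lower for all 12 of these genes: 0.671, 0.658 and 0.08 for those of Car2, 0.687, 0.885 and 0.901 for those of Car3, 0.805, 0.581 and 0.637 for those of Car1 and 0.593, 0.727 and 0.643 for those of Car13. The share of genes with a lower r over clusters was 85.5%, 84.8% and 58% for those of Car2. It was 92.1%, 99.1% and 99.3% for those of Car3, and 88.8%, 65.3% and 70.7% for those of Car1. For those of Car13 it was 70.5%, 84.5% and 75.5%. Across clusters most of these genes were thus not among those most alike. Between the 4 genes themselves r was 0.685 for Car2 with Car3, 0.777 for Car1 with Car13 and 0.275 for Car1 with Car3. It was 0.156 for Car3 with Car13, -0.426 for Car1 with Car2 and -0.544 for Car2 with Car13. The points share libraries, genotype and class, so r is a description of these 12 values.

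**Figure D5:**
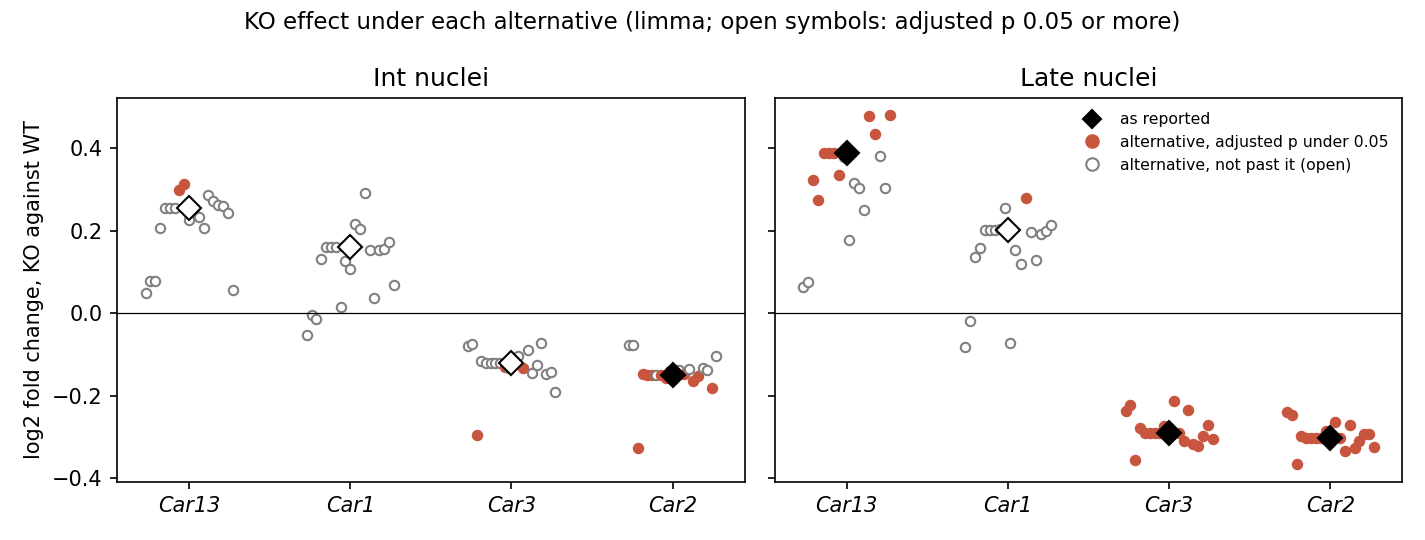
Log2 fold change of KO against WT (vertical axis) of the 4 genes under each alternative way of processing, in Int and Late nuclei; the diamond is the value as reported, filled symbols have a limma adjusted p under 0.05 and open symbols do not. In Late nuclei Car2 stays between -0.37 and -0.24 and Car3 between -0.35 and -0.21, all filled, while Car13 ranges from 0.06 to 0.48 and Car1 from -0.08 to 0.28.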

How the data were processed

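The gene score is a signal that the authors deposited per gene and nucleus, scaled so that each nucleus sums to about 10000 (9999.855 to 10000.12); its weighting is not given in the sources used here. Cell Ranger and mm10 are named in the submitters' processing notes; of 23863 symbols found in RefSeq GRCm38.p6, 23860 were on the same chromosome. The deposited counts of fragments per nucleus, classes, clusters and quality values were used as given; the authors' clusters were not remade and doublets were handled only as an alternative.

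Scores were averaged per library and rescaled to 1000000. Genes with a mean of at least 5 were kept, and log2(score + 1), which understates changes of low genes, was fitted with limma 3.58.1 in R 4.3.3 (mean-variance trend, two-sided) over all nuclei, Int and Late, with Benjamini-Hochberg adjustment over all genes and a threshold of 0.05. The difference of the KO effect was fitted on Late minus Int within libraries. Ratios and shares were compared by exact permutation tests in Python 3.11.15 with scipy 1.17.1. The procedure was tested on simulated data.

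The named genes were the 4 genes, Stag2, neighbours within 1 Mb called in any class or between the 4 genes, up to 6 called genes of the family and of the transport list by size of change, and for each of the 4 genes the 3 with the highest r. Slc4a1, 1810022K09Rik, Lrrcc1, A930001A20Rik and the neighbours below the filter fall outside this rule and were named after their values were seen. The 4 genes were set by name and position, and they and the lists were chosen with earlier results of these data known. Alternatives changed the normalization, pseudocount, filter, variance model, weights and nuclei used, or left out 1 library; the strata were added after seeing the data. Deviations of same-numbered libraries correlated at -0.273 to 0.206, so numbers were not used as pairs. The labels give no batch. The RNA, stem and progenitor, CUT&RUN and Hi-C samples were not analysed here.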

Additional observations from a re-analysis of the deposited data

How the results depend on the processing

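Car2 and Car3 kept their direction and passed the threshold under all 20 alternatives in all nuclei and all 19 in Late nuclei. Every other value below is a log2 fold change of KO against WT unless named otherwise, and the cause of a change was not tested. Car1 turned to -0.0472 in all nuclei under quantile normalization. In Int nuclei it turned to -0.0529 under quantile normalization, -0.0047 under cyclic loess and -0.0143 with median centring. In Late nuclei it turned to -0.0808 under quantile normalization, to -0.0182 under cyclic loess and to -0.0707 on nuclei matched on the share in peaks, and without single libraries it ran from 0.13 to 0.28.

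Car13 in all nuclei missed the threshold under quantile normalization (0.0648), cyclic loess (0.11), median centring (0.20), no variance trend (0.35), nuclei matched on the share in peaks (0.21) and without the highest doublet scores (0.30), and ran from 0.20 to 0.42 without single libraries. In Late nuclei it missed it under quantile normalization (0.0639), cyclic loess (0.0765), nuclei matched on depth (0.38) and on the share in peaks (0.18), without the highest doublet scores (0.32) and in the deeper nuclei (0.30), and ran from 0.25 to 0.48. In Int nuclei it passed with array weights (0.30) and on nuclei matched on depth (0.31).

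Car2 in Int nuclei missed the threshold under quantile normalization (-0.0777), cyclic loess (-0.0757), no variance trend (-0.15), without the highest doublet scores (-0.14) and in C5 alone (-0.10), and ran from -0.18 to -0.13 without single libraries. Car3 passed it in Int nuclei with median centring (-0.30), array weights (-0.13) and the deeper nuclei (-0.13). The KO effect in Late less that in Int passed for Car2 with array weights (-0.17). For Car1 it turned to -0.0269 and -0.0197 under quantile normalization and cyclic loess and ran from -0.013 to 0.0916 without single libraries, and for Car13 it turned to -0.0093 under cyclic loess.

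The number of genes called in all nuclei was 7661, against 4244 with the filter at 20 and 4705 on nuclei matched on the share in peaks. In Late nuclei it was 8161, against 4560 and 2883. In Int nuclei it was 3858, against 1921 without a variance trend and 171 in C5 alone, and 2547 to 4783 without single libraries. For the difference of the KO effect it was 35, against 199 under quantile normalization, 113 under cyclic loess, 279 with median centring, 120 with a pseudocount of 5, 218 with the filter at 20, 6 without a filter, 206 without a variance trend, 2152 with array weights, 84 on nuclei matched on depth, and 0 to 819 without single libraries (2799 genes had an unadjusted limma p under 0.05). Of the calls 64.2% were higher in Int nuclei, 50.7% under quantile normalization and 24.4% with median centring; in Late nuclei 64.0%, 46.5%, 52.5% under cyclic loess and 47.9%. The median change of all genes moved from 0.10 to -0.02 under quantile normalization in all nuclei and from 0.06 to -0.12 with median centring in Int.

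The replicate block, which treats the replicate number as a block, gave 7470 calls in all nuclei, 4527 in Int, 7982 in Late and 12 for the difference of the KO effect. Library numbers were not used as pairs in the other fits, and whether same-numbered libraries were prepared together is not given in the labels.

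The log2 ratio of Car1 to Car13 ran from -0.29 to 0.0886 without single libraries in all nuclei, from -0.23 to 0.0853 in Int and from -0.31 to 0.0285 in Late, and that of Car2 to Car3 from -0.0622 to 0.0095 in Int and -0.0379 to 0.0128 in Late. Matched on depth, the Int shares of nuclei with a Car2 or Car3 score turned to -1.13 and -1.71 percentage points, and the Late share for Car1 ran from -0.243 to 2.53 without single libraries. Over cluster means, none of the genes most alike to each of the 4 was among the first 3. Car1 and Car13 fell below the filter at 20 and were not tested under it. Car13 was above 0 in 6.70% to 9.18% of Late nuclei, so its mean rests on few nuclei.

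Of single genes named beside the 4, Car10 in all nuclei turned to -0.0204 under quantile normalization and -0.1419 on nuclei matched on the share in peaks, which also turned Slc4a3 to -0.1255 and Slc4a4 to -0.0754. Slc4a1 turned to 0.0114 under cyclic loess and 0.0289 matched on the share in peaks, and 1810022K09Rik in Late nuclei to 0.052, 0.0533 and 0.147 under quantile normalization, cyclic loess and matching on the share in peaks, and it ran from -0.0403 to 0.014 without single libraries. Stag2 was -0.20 with median centring (limma adjusted p = 0.0202).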
